A study of Mus musculus with 38 samples.

Results

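Vomeronasal type 1 receptor genes (Vmn1r genes) were examined for contact with the nuclear periphery. The members were taken by symbol: every protein-coding gene whose symbol was Vmn1r followed by a number. This gave 230 of the 78202 genes in the tables, with 229 different symbols, because Vmn1r216 is listed under 2 identifiers. One of these identifiers has no position in the annotation, which leaves 229 members with coordinates.

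V1R proteins are G protein-coupled receptors of the apical sensory neurons of the vomeronasal organ, where each neuron is thought to use a single receptor gene to detect small pheromone-like molecules. The signal runs through the G protein subunit encoded by Gnai2 and the channel encoded by Trpc2. The genes have short, usually single-exon coding sequences, lie in tandem clusters with many pseudogenes, and expanded greatly in rodents. Pluripotent cells are not known to use them, and such clustered receptor genes are known to lie often in lamina-associated heterochromatin.

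The study profiled mouse embryonic stem cells (mESC) in naive pluripotency, kept in serum-free 2i + LIF medium, and epiblast-like cells (EpiLC), made from them with FGF and Activin A and collected after 48 hours. WT cells were compared with cells lacking LBR, the lamin B receptor of the inner nuclear membrane (LBRKO), with cells lacking all lamins (TKO, the lamin triple knockout), and with cells lacking lamins and LBR (QKO). CUT&RUN, in which a nuclease tethered by an antibody releases the DNA next to a protein, was done with an antibody to LAP2B, a lamin-binding membrane protein, in all 4 genotypes at both stages. Lamin B1 (LMNB1) and the IGG control antibody were profiled in WT cells only, which gives 12 groups of 3 libraries, 36 in all. Libraries of the histone mark H3K9me3 from naive WT cells were also made and were not used here. Each library started from 200000 cells.

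The genotypes are limited as models. WT and TKO cells were littermate but separate lines, LBRKO cells were derived from WT cells and QKO cells from TKO cells, and QKO was a single surviving clone. The study's supplement describes an in-frame deletion on one Lbr allele of that clone and a frameshift on the other. Part of the WT cells had an extra copy of chromosome 6, and the TKO line also had an abnormal karyotype, so copy number and nuclear position cannot be told apart in the contrasts. The study's reporting summary speaks of independent experiments for its findings in general. Neither it nor the methods say that the 3 libraries of a group came from separate cultures, and p-values therefore measure the spread between libraries only. The tables hold DNA signal, in which neither the knockouts nor the cell types can be checked by marker expression.

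The deposited values are spike-in-scaled coverage per gene. They were taken to be sums over the 1 kb bins a gene touches, which the values alone do not settle. Both a relative and a spike-in scale were used. On the relative scale each value was divided by the median gene of its library, so that 1 is the median gene. On the spike-in scale the deposited value was kept, which also carries a change in the total signal of a library. Since such a sum grows with the length of a gene, genes were compared with each other only as percentiles of signal per 1 kb bin among the 78131 genes with coordinates. Reads over genes ran from 12608484 to 41198406 for LAP2B, from 29522895 to 37189077 for LMNB1 and from 12028659 to 45689196 for IGG. Over all 230 members, including the 81 at 0 in every library, the median member had 28 to 110 reads in a LAP2B library. It had 131.5 to 172.5 in an LMNB1 library and 33.5 to 133 in an IGG library, so a single member was counted far less precisely than the group.

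The 229 members with coordinates (GRCm39) fell into 14 loci, joined where neighbouring members lay less than 1 Mb apart, and 8 of these held at least 5 members and 221 members together. They are named here by chromosome and order. On chromosome 6 they are chr6-2 (Vmn1r4 to Vmn1r31, 28 members over 1.551 Mb), chr6-3 (Vmn1r32 to Vmn1r39, 8 members over 0.258 Mb) and chr6-4 (Vmn1r40 to Vmn1r54, 15 members over 0.564 Mb). On chromosome 7 they are chr7-1 (Vmn1r55 to Vmn1r65, 11 members over 0.882 Mb), chr7-2 (Vmn1r66 to Vmn1r89, 24 members over 2.948 Mb) and chr7-4 (Vmn1r91 to Vmn1r183, 86 members over 3.929 Mb). The last are chr13-1 (Vmn1r188 to Vmn1r223, 35 members over 1.169 Mb) and chr17-1 (Vmn1r224 to Vmn1r237, 14 members over 0.901 Mb). The 8 members outside these clusters are Vmn1r1 on chromosome 1, Vmn1r2 and Vmn1r3 on chromosome 4, Vmn1r261 on chromosome 6, Vmn1r90, Vmn1r184 and Vmn1r185 on chromosome 7, and Vmn1r238, alone on another chromosome.

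The promoters of 5 members are shown because the results turn on these genes: Vmn1r1 stands apart from the others, and the remaining genes are those with the median QKO change of their clusters. Each sequence is GRCm39 sequence from 250 bases before to 50 bases after the gene start in the GENCODE annotation. It is read 5′ to 3′ on the gene's strand, with capitals marking the letters TATAAA where they occur. Where a gene model begins at the start codon, the window holds the 250 bases before the coding sequence and 50 bases from its start. It then does not lie at a mapped transcription start.
Vmn1r1 (chr1:181992002-181992301, minus strand): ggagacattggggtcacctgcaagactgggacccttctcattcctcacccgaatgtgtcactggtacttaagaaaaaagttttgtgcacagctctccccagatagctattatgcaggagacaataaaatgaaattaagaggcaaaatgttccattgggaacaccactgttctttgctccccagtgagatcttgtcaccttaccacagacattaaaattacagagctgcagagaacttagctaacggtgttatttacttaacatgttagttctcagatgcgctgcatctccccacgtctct
Vmn1r13 (chr6:57180025-57180324, plus strand): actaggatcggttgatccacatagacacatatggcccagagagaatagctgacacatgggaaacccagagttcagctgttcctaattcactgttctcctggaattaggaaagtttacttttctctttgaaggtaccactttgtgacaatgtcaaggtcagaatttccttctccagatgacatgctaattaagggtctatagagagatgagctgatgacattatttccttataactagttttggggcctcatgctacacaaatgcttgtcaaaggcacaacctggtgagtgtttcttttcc
Vmn1r72 (chr7:11414025-11414324, minus strand): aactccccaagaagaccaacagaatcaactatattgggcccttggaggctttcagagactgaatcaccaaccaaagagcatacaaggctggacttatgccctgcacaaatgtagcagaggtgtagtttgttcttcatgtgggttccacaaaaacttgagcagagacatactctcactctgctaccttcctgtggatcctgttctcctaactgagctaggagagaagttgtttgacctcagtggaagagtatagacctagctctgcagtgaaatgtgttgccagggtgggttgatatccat
Vmn1r199 (chr13:22563738-22564037, plus strand): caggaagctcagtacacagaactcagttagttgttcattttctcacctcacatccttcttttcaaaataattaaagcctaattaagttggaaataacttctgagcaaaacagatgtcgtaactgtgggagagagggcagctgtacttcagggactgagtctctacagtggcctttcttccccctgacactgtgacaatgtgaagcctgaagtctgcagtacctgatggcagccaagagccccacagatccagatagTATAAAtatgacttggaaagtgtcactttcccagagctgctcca
Vmn1r225 (chr17:20718170-20718469, plus strand): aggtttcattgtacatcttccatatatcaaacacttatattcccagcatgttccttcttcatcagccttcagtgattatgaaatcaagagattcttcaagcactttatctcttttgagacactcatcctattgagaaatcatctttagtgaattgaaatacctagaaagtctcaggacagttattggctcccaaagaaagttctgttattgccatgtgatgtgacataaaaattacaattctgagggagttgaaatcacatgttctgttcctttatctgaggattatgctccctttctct

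The members' promoters were poor in GC and CpG. Their median GC content was 37.7% and their median CpG count was 1, against 52.3% and 8 over the promoters of 21683 protein-coding genes. No CpG at all was found in 27.9% of the members' promoters and in 5.6% of all promoters. The letters TATAAA stood on either strand in 31.4% of the members' promoters (72) and in 13.7% of all promoters. Of these 72, 43 lie among the 86 members of chr7-4, whereas chr6-4 (6.7%) and chr7-2 (8.3%) were below all promoters, and Vmn2r promoters held the letters in 22.1%. The letters CCCNNGGG stood in 3.1% of the members' and 13.9% of all promoters. Promoters of Or genes, the odorant receptors of the main olfactory epithelium, were close to these values in GC (37.7%) and TATAAA (33.0%), but 15.3% of them held CCCNNGGG. These letters are a description of the windows and say nothing of a bound factor. Over 100 kb around the gene, the median GC content was 40.0% for members and 44.2% for all protein-coding genes.

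Of the 230 members, 148 passed the filter on low values and 82 did not. Among the latter, 81 were listed at 0 in all 36 libraries, including IGG. That is 35.2% of the members, whereas 4.15% of all genes (3244) were at 0 throughout. The remaining one, Vmn1r170, had a mean deposited value of 0.227 and lay just under the filter at 0.353, and the members just above it were Vmn1r212 (0.494) and Vmn1r177 (0.646). Of the 81 members at 0, 70 lay in a single block of 3.12 Mb in chr7-4, chr7:19833605-22951107, in which all 141 annotated genes of any kind were at 0. The study's methods state that blacklisted regions were left out of the coverage. The list of those regions was not used here, so whether this block is one of them was not tested, and a value of 0 there cannot be read as an absence of contact with the lamina. The other 11 were spread over chr6-2 (3), chr7-4, chr6-3, chr7-2 and chr13-1 (1 each) and the single loci of Vmn1r2, Vmn1r3, Vmn1r261 and Vmn1r238.

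Most members at 0 had a nearly identical copy among the other members. Of these 81 members, 70 lie in the block of chromosome 7 in which all 141 genes were at 0. They are a single locus and not separate cases. The coding sequence of a member at 0 had a median identity of 99.9% to its nearest copy, with 77 of 81 at 95% or more and 62 at 99% or more. Among the measured members the median was 91.9%, and of the 143 that had a copy at all 36 reached 95% and 0 reached 99%. The 11 members at 0 outside the block ranged from 82.4% (Vmn1r77) to 99% (Vmn1r2 and Vmn1r3). Whether identity goes with a value of 0 apart from that block was not tested. Vmn1r100 and Vmn1r148, both at 0, have coding sequences of 921 bases with 0 differing bases. Vmn1r199 and Vmn1r214, both measured, have 1101 bases with 89 differences. The first 120 bases of these coding sequences (GENCODE annotation, GRCm39) are shown to compare the pairs, with the 15 bases at which Vmn1r199 and Vmn1r214 differ in capitals.
Vmn1r100: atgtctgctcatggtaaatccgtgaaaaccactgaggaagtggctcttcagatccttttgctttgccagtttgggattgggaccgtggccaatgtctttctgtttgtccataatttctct
Vmn1r148: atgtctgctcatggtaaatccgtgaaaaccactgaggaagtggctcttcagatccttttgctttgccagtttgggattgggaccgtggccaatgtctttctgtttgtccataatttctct
Vmn1r199: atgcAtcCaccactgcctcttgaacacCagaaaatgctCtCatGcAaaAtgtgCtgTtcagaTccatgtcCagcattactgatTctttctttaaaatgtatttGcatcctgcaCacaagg
Vmn1r214: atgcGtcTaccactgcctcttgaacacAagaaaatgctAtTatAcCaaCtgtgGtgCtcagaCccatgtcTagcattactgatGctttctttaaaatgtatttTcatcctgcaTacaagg

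**Figure D1:**
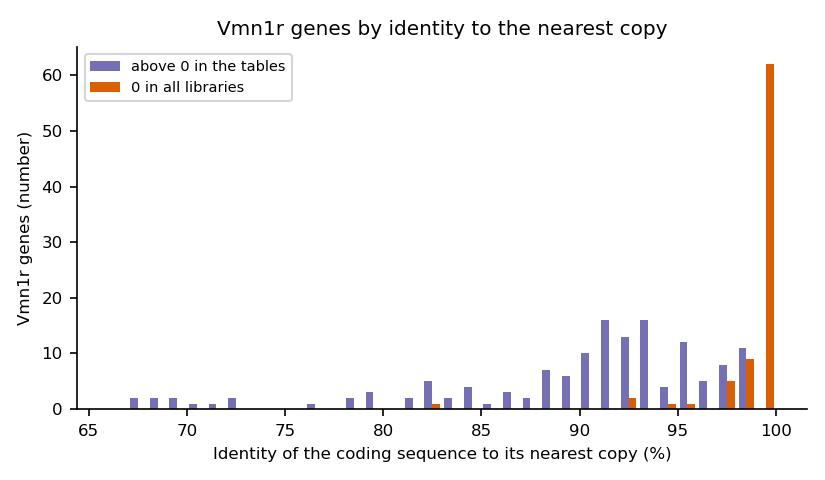
Number of Vmn1r genes (y axis) by the identity of their coding sequence to the nearest copy (x axis, %), for 143 genes above 0 in the tables and 81 genes at 0 in all libraries. Of the genes at 0, 62 sit at 99% or more, where no measured gene lies. A single block of chromosome 7, in which all genes were at 0, holds 70 of the 81.

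Per the study's methods, properly paired primary alignments were kept and duplicates removed, and no filter for unique mapping is stated for the gene tables. A read that matches several copies equally well has its primary alignment at one of them, so the values of members with close copies are less certain than those of the others. Members are also small: of the 229 with coordinates, 81 span 1 to 2 bins (median 7, most 52), and 6 tested members share a bin with another member. All counts below are over the 148 tested members, 147 of which have coordinates and so a percentile, and leave chr7-4 represented by 14 of its 86 members.

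In WT cells, the members lay high in the signal per bin of both lamina antibodies in naive cells and of LMNB1 in EpiLC. They lay nearer the middle in EpiLC LAP2B, and low in IGG at both stages. The low IGG rank depends on the division by bins: without it the median member stood at 60.0 in naive and 58.0 in EpiLC IGG, and at 72.7 and 71.2 in LMNB1 and 68.6 and 65.1 in LAP2B. In naive mESC the median member stood at the 78.7 ± 5.9 percentile of LMNB1 (SD, n = 3), the 69.1 ± 3.6 percentile of LAP2B and the 32.7 ± 3.8 percentile of IGG. Of the 147 members with a percentile, 83 (56.5%) stood above the 75th percentile in LMNB1, 56 (38.1%) did so in LAP2B and 4 (2.7%) in IGG. The libraries of the lamina antibodies did not overlap with those of IGG, whose highest median was 36.1. Values of different antibodies were normalised separately and were set side by side only as ranks. In EpiLC the LMNB1 percentile was 81.2 ± 4.4 and the LAP2B percentile was 60.6 ± 8.7, with 1 EpiLC LAP2B library at 50.8 and the other two at 63.5 and 67.4. The IGG percentile in EpiLC was 31.2 ± 2.0.

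**Figure D2:**
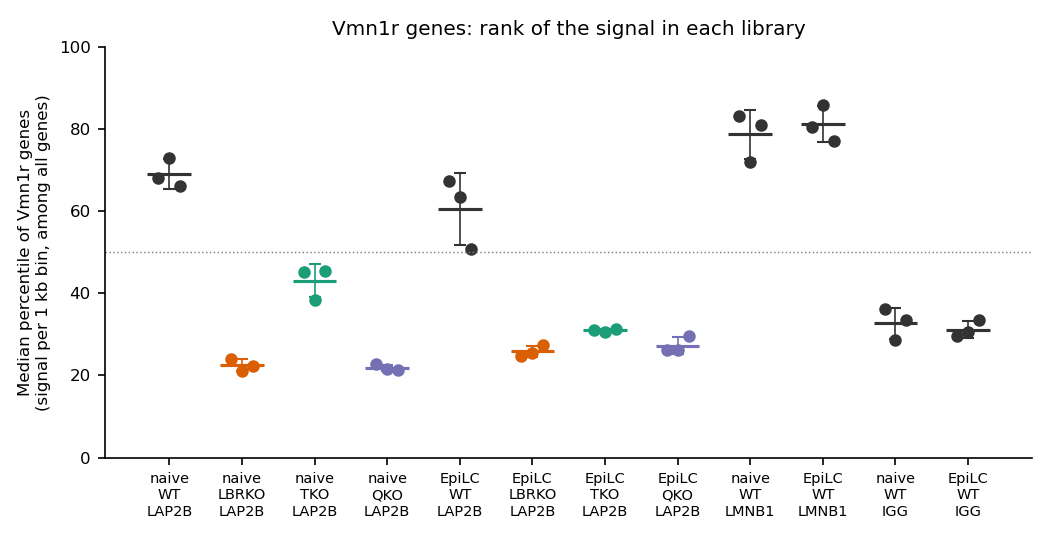
Median percentile of 147 Vmn1r genes (y axis, rank of the signal per 1 kb bin among all genes) in each of the 36 libraries, by group on the x axis. Points are libraries, and bars are the mean ± SD of 3. The lowest WT LAP2B or LMNB1 library is at 50.8, the highest IGG library is at 36.1 and the highest knockout library is at 45.5.

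Vmn2r and Or genes, the other large chemoreceptor families, ranked higher than the members with the lamina antibodies, except Or in 1 EpiLC LAP2B library. The pheromone receptors of the basal vomeronasal neurons, Vmn2r (111 tested), stood at 88.7 ± 2.9 in naive LMNB1 and 80.2 ± 2.8 in naive LAP2B. The odorant receptors (Or, 1104 genes) stood at 86.2 ± 4.1 and 76.7 ± 3.8. Vmn1r pseudogenes (86), which lie in the same clusters, were close to the members at 74.8 ± 4.2 and 67.0 ± 5.0. The members' naive LAP2B ranks overlapped with those of the pseudogenes between libraries and lay below those of Vmn2r in every library pair (at most 73.0 against at least 78.5). In EpiLC LMNB1, Vmn2r (89.2 ± 2.6) and Or (86.2 ± 4.0) stood above the members (81.2 ± 4.4) in each library. In EpiLC LAP2B, Vmn2r (66.4 ± 9.9) stood above the members (60.6 ± 8.7) in each library, while Or (61.9 ± 10) stood below them in replicate 2 (60.7 against 63.5).

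The clusters differed in rank. In naive LMNB1, chr6-3 and chr17-1 stood highest (92.8 ± 4.3 and 92.8 ± 2.8), followed by chr6-2 at 88.9 ± 5.9, while chr6-4 (69.4 ± 4.2) and chr13-1 (61.5 ± 4.5) stood lowest. The single genes ranged more widely. Vmn1r8 in chr6-2 stood at the 99.7 percentile of naive LMNB1 and the 98.5 percentile of LAP2B, and Vmn1r18 in the same cluster at 42.4 and 23.3. Vmn1r8, Vmn1r175 (chr7-4) and Vmn1r48 (chr6-4) also stood high in naive IGG, at 91.7, 94.9 and 99.1. Across the 147 members, the naive LMNB1 and LAP2B percentiles had a Pearson correlation of 0.82 (Spearman 0.84), whereas LMNB1 and IGG had 0.38 (0.34). Members with lower GC over 100 kb ranked higher in LMNB1 (r = -0.50). These are descriptions across genes that share clusters, libraries and base composition.

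LAP2B signal was lower over most members in naive LBRKO cells. In limma's test over all 70381 tested genes, 132 of 148 members were called lower at an adjusted p under 0.05, against 27.7% of all genes, and 1 was called higher, against 28.9% of all genes. The median change was -1.23 on the log2 relative scale, and the median of all genes was 0.04. The median member went from the 69.1 percentile of signal per bin to 22.5 ± 1.5, and without division by bins from 68.6 to 49.9. Spike-in-scaled values were lower for 114 members (17.8% of all genes) and higher for 1 (28.2%).

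On the relative scale the largest falls in LBRKO lay on chromosome 7. Vmn1r73, in chr7-2, had relative values of 7.38, 8.91 and 7.92 in the WT libraries and 1.70, 1.98 and 1.60 in LBRKO. The groups were far apart, and the change was -2.13 ± 0.15 (SE, adjusted p = 3.66e-17, limma). Vmn1r72, in the same cluster, had 4.10, 5.34 and 3.31 in WT and 1.05, 0.934 and 0.843 in LBRKO, a change of -2.04 ± 0.22. Vmn1r74 and Vmn1r70 (chr7-2) and Vmn1r60 (chr7-1) changed by -2.07, -2.06 and -2.06. In chr7-2, 23 of 23 tested members were lower with a median of -1.70, and of -1.63 divided by the median gene of chromosome 7.

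Of the large clusters, chr6-4 had the smallest change in LBRKO. On the relative scale 5 of its 15 members were called lower in LBRKO, a share near the 27.7% of all genes, with a median of -0.34. By spike-in 1 was lower, where 17.8% of all genes were, with a median of -0.17. Of the 15 members called in neither direction over all clusters on the relative scale, 10 lay in this one. Vmn1r44 had 2.78, 3.39 and 2.73 in WT and 2.71, 2.67 and 1.75 in LBRKO. The highest LBRKO library lay just under the lowest WT library, and the change of -0.33 ± 0.20 was not called (adjusted p = 0.161, limma). Chromosome 6 as a whole was higher in LBRKO by a median of 0.26 over its 4101 tested genes, compared with -0.08 for chromosome 7. The 12 other protein-coding genes within 500 kb outside chr6-4 had a median of 0.80, with 10 higher and 0 lower (28.9% and 27.7% of all genes). By spike-in their median was 0.98, with 9 higher and 0 lower (28.2% and 17.8%). When each gene was divided by the median gene of its own chromosome instead, 14 of 15 members of chr6-4 were lower, with a median of -0.64, and the medians of chr6-2 and chr6-3 moved from -1.40 to -1.70 and from -0.96 to -1.26. Chromosome copy number and contact cannot be told apart in this comparison.

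TKO cells, which lack the lamins but have LBR, also had lower signal over many members. In naive TKO cells, 98 members were lower (27.6% of all genes) and 1 was higher (21.8%), with a median of -0.73 against -0.11 for all genes. The median percentile was 43.1 ± 4.1, and 59.0 without division by bins. On the spike-in scale, on which all genes fell by a median of 0.65, 131 members were lower (47.5% of all genes) and 0 higher (2.43%), with a median of -1.31. Dividing by the mean gene of each library in place of the median gene left 55 lower and 2 higher. Vmn1r13, in chr6-2, had 4.54, 3.71 and 3.62 in WT and 2.76, 1.88 and 2.03 in TKO (-0.82 ± 0.20, adjusted p = 0.000724, limma), with no overlap. Vmn1r50 in chr6-4 had the largest fall, from 2.57, 3.5 and 3.35 to 1.26, 0.725 and 1.06 (-1.56 ± 0.23), although its cluster had the smallest median change in LBRKO.

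In TKO the smallest median change of the large clusters was that of chr13-1. There 8 of 34 members were lower with a median of -0.34, where 27.6% of all genes were lower. The relative LBRKO values were 32 of 34 and -1.03, but by spike-in 23 of 34 were lower in TKO (median -0.93) and 24 of 34 in LBRKO (median -0.86), so this gap between the knockouts depends on the scale. Vmn1r199, the member with its cluster's median QKO change, had 1.03, 2.50 and 2.69 in WT and 1.79, 1.5 and 1.28 in TKO. The first WT library lay below all TKO libraries, and the change of -0.32 ± 0.24 was not called (adjusted p = 0.271, limma), whereas by spike-in it was (-0.91, adjusted p = 0.0104, limma). In LBRKO the same gene was at 0.933, 0.705 and 1.04 (-1.04 ± 0.24, adjusted p = 0.000294, limma), where the first WT library overlapped with the third LBRKO library.

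Nearly every tested member was lower in naive QKO cells. In total 145 members were lower (42.5% of all genes) and 1 was higher (33.1%), with a median of -1.62 and quartiles of -1.98 and -1.10, against a median of -0.23 for all genes. All 3 QKO libraries lay below all WT libraries for 142 members and for 42.1% of all genes. In LBRKO this held for 131 members (28.5% of all genes) and in TKO for 98 (29.4%). The median percentile was 21.9 ± 0.7, and 45.2 without division by bins. On the spike-in scale 147 members were lower (65.5% of all genes) and 0 higher (10.1%), with a median of -2.67 where all genes fell by a median of 1.24.

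Members of chr6-2 had some of the largest falls in QKO on the relative scale. Vmn1r16 went from 3.88, 4.55 and 3.37 in WT to 0.489, 1.02 and 0.191 in QKO (-2.79 ± 0.26, adjusted p = 3.85e-14, limma). Vmn1r8 went from 4.03, 5.55 and 3.02 to 0.422, 0.733 and 0.412 (-2.78 ± 0.22). Vmn1r13, at the median of chr6-2, went to 0.522, 0.943 and 0.750 (-2.30 ± 0.20). In none of these genes did the QKO and WT libraries overlap. The chr6-2 cluster as a whole had a median of -2.30, with 25 of 25 members lower, followed by chr6-3 (-1.89), chr7-2 (-1.87) and chr17-1 (-1.83). The order depends on the scaling, since the all-gene median in QKO was -0.66 on chromosome 6, -0.20 on chromosome 7 and 0.28 on chromosome 17. Divided by the median gene of their own chromosome, chr17-1 had -2.40, chr7-2 -1.99, chr6-2 -1.87 and chr6-3 -1.49. The chr13-1 cluster had the smallest median either way, -1.04 (34 of 34 lower) and -0.82.

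On the relative scale 2 tested members were not called in naive QKO, and they are named after their values were seen. Both were lower by spike-in (-1.53 and -1.55), where Vmn1r1 was the member not called. Vmn1r56 in chr7-1 changed by -0.59 ± 0.30 (adjusted p = 0.0742, limma), although it was lower in LBRKO (-1.43) and TKO (-0.84). Vmn1r167 in chr7-4 changed by -0.64 ± 0.34 (adjusted p = 0.0827, limma) and was called in none of the naive knockouts (-0.30 in LBRKO and 0.08 in TKO). The 3 genotypes were all compared with the same 3 WT libraries. Whether an effect differs between LBRKO and TKO was not tested.

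**Figure D3:**
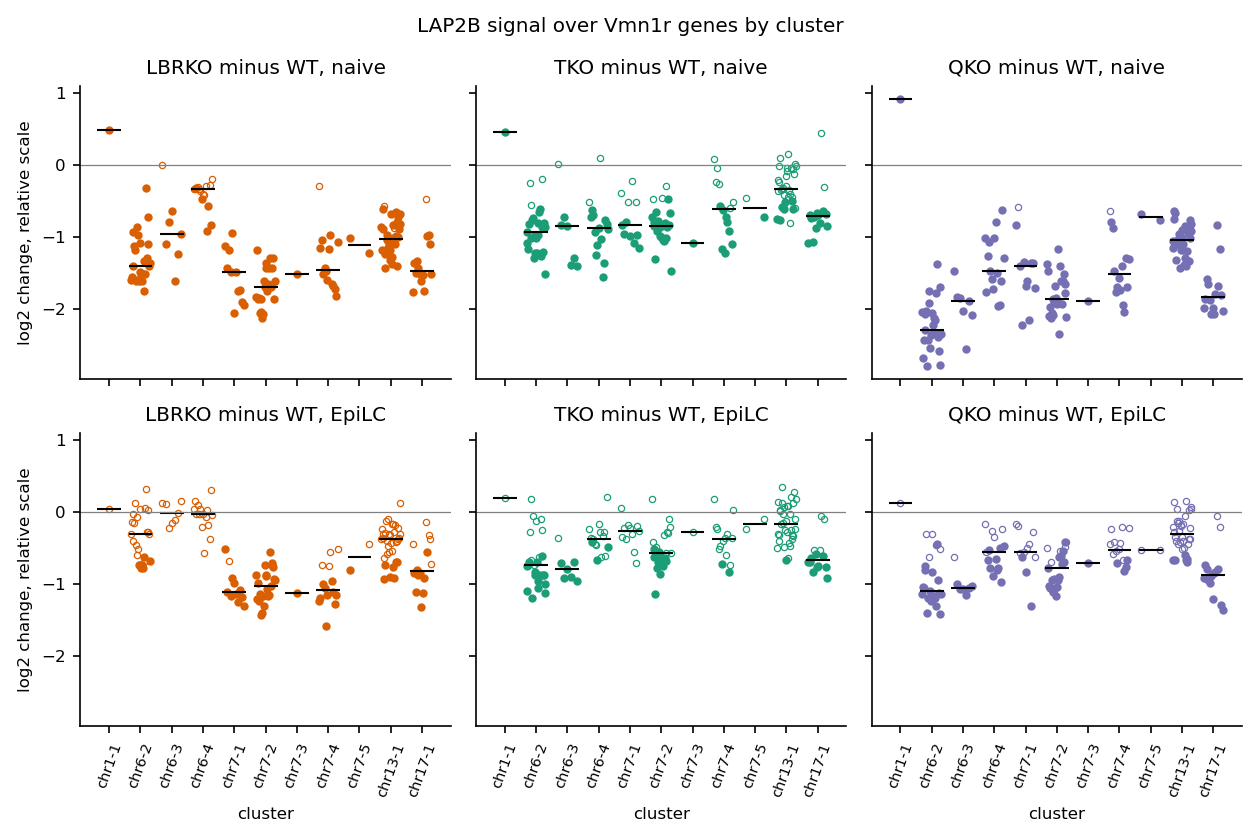
Change of LAP2B signal of each tested Vmn1r gene (y axis, log2 of knockout over WT, relative scale) by cluster (x axis), for 3 genotypes and 2 stages. Filled points have an adjusted p under 0.05, open points do not, and lines are cluster medians. Vmn1r1 (chr1-1) is above 0 in naive cells, but for TKO and QKO its change is below 0 on the spike-in scale (-0.14 and -0.28), and the medians of the large chromosome 6 clusters are -0.30, -0.01 and -0.03 in LBRKO EpiLC.

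QKO cells were made from TKO cells by targeting Lbr, and the comparison of these lines addresses the loss of LBR in cells without lamins, although in a single clone. In naive cells 119 members were lower in QKO than in TKO (27.2% of all genes) and 1 was higher (26.4%), with a median of -0.86. Vmn1r14, with 2.12, 2.85 and 2.99 in TKO and 0.611, 0.552 and 0.882 in QKO, had the largest difference (-1.82 ± 0.22, adjusted p = 5.27e-10, limma). Its WT libraries were at 3.72, 3.89 and 2.14, and its change in TKO was not called on the relative scale (-0.25 ± 0.22, adjusted p = 0.343, limma), although by spike-in it was lower (-0.85, adjusted p = 0.0121, limma). By spike-in 139 were lower (40.6% of all genes) and 0 higher (6.23%), with a median of -1.34 where all genes had -0.55. In EpiLC the comparison depended on the scale. Relative values called 0 members in either direction in limma's test (0.933% of all genes were higher and 0.27% lower). The median there was -0.22, and 15 members had an unadjusted p under 0.05. The edgeR test on the reads recovered from the values called 1. By spike-in, in a fit added after seeing the data, 82 members were lower in QKO EpiLC than in TKO EpiLC (28.4% of all genes) and 0 higher (0.00142%), with a median of -0.80 where all genes had -0.57.

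Vmn1r1 was the single member called higher in each naive knockout on the relative scale. In TKO its change was one of 8 above 0, in LBRKO one of 2, and in QKO the only one. It lies alone on chromosome 1 (chr1:181982269-181992051, minus strand), 309 kb from Lbr, the gene targeted in LBRKO and QKO. Its naive LMNB1 percentile was 42.0, below the median of all genes, and its LAP2B percentile was 39.7, below its IGG percentile of 47.8. In naive LAP2B the WT libraries had relative values of 2.28, 1.46 and 1.73 and the LBRKO libraries of 2.43, 2.75 and 2.46. TKO libraries followed with 2.46, 2.15 and 2.91, and QKO libraries had 3.80, 3.67 and 2.99. All LBRKO and QKO libraries lay above WT, and the TKO libraries overlapped with it. The change in QKO was 0.91 ± 0.19 (adjusted p = 2.84e-05, limma), but on the spike-in scale it was -0.28 ± 0.29 (adjusted p = 0.382), so its direction depends on the scale. In LBRKO it was 0.48 ± 0.19 (adjusted p = 0.0269, limma), and 0.67 on the spike-in scale (adjusted p = 0.047). In TKO it was 0.45 (adjusted p = 0.0434, limma), but -0.14 on the spike-in scale (adjusted p = 0.706).

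The LBRKO and TKO calls of Vmn1r1 depended on single libraries and on the processing. Without WT naive replicate 2 the adjusted p (limma) was 0.162 for LBRKO and 0.225 for TKO, and without WT naive replicate 3 it was 0.0605 and 0.088. The LBRKO call was also lost without LBRKO naive replicate 2 (0.086), and the TKO call without TKO naive replicate 1 (0.0742) or 3 (0.184). The edgeR test on recovered reads gave adjusted p-values of 0.086 and 0.0563, and a limma fit of only the groups compared 0.0539 and 0.0969. Division by the chromosome's median gene ended the LBRKO call (0.0723), and no filter on low values the TKO call (0.0524). The QKO call held in every alternative run on the relative scale. In EpiLC the changes were 0.05, 0.20 and 0.12 with none called, while on the spike-in scale Vmn1r1 was lower in QKO (-0.72 ± 0.29, adjusted p = 0.0262, limma). Of the 9 other protein-coding genes tested within 500 kb, 2 were higher and 1 lower in naive TKO on the relative scale (21.8% and 27.6% of all genes). In naive LBRKO 6 were higher (28.9% of all genes) and in naive QKO 6 (33.1%), among them Enah (1.21 and 1.45), Degs1 (0.79 and 1.49) and Lbr itself (0.69 and 0.86). By spike-in these 3 genes were higher in LBRKO (1.39, 0.97 and 0.88). They were called neither in TKO (-0.26, 0.08 and -0.34) nor in QKO (0.21, 0.30 and -0.37).

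**Figure D4:**
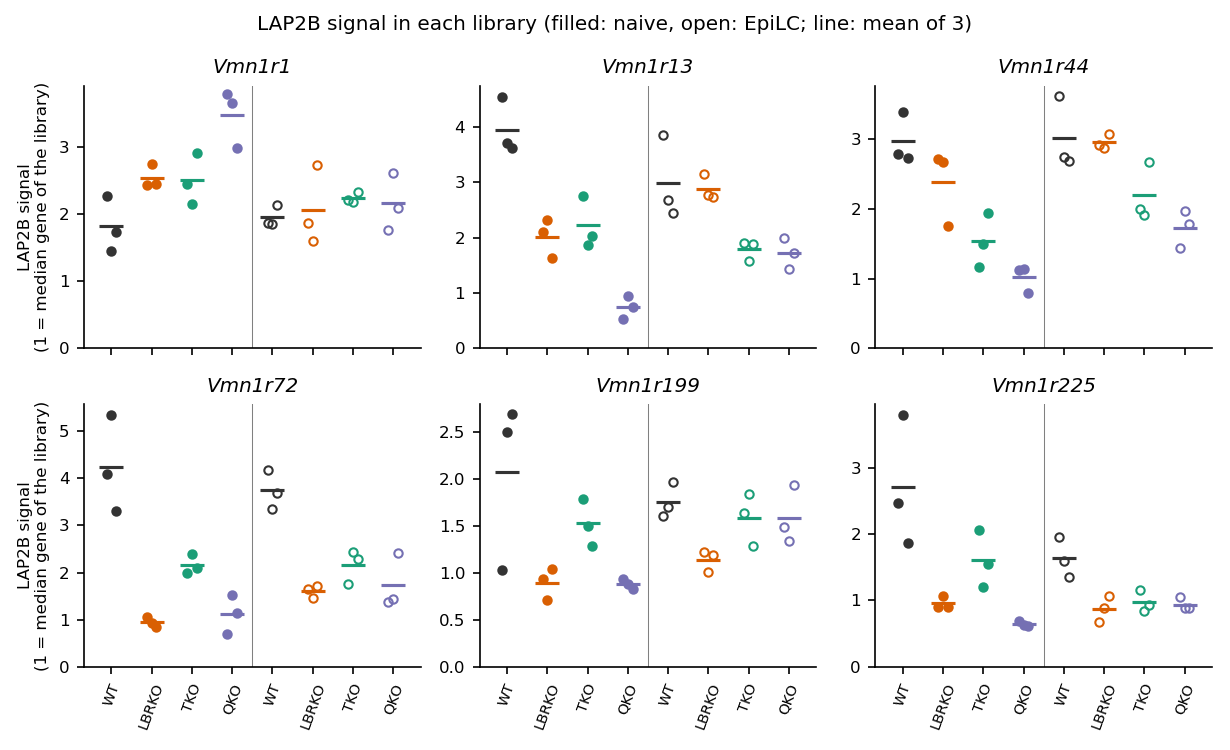
LAP2B signal of 6 Vmn1r genes in each library (y axis, linear, 1 is the median gene of that library), by genotype on the x axis with naive cells to the left of the line (filled) and EpiLC to the right (open), and bars are means of 3. Vmn1r1 is highest in naive QKO on this scale, where its change on the spike-in scale is -0.28 and was not called, and the other genes have their highest mean in WT at each stage, with overlapping WT and LBRKO libraries for Vmn1r13 and Vmn1r44 in EpiLC.

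The rise of Vmn1r1 was not shared by other members outside the large clusters. Vmn1r90, alone in its locus between chr7-2 and chr7-4, fell in LBRKO (-1.52), TKO (-1.08) and QKO (-1.89). Vmn1r184 and Vmn1r185 fell in LBRKO (-1.01 and -1.23) and in QKO (-0.69 and -0.76). In TKO Vmn1r185 was called on the relative scale (-0.73), and both were lower by spike-in (-1.04 and -1.30). The remaining 4 were not tested because they were at 0.

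In EpiLC the same genotypes had fewer calls on the relative scale. The study's authors describe LAP2B signal in WT EpiLC both inside and outside lamina-associated domains, and they did not use it to define these domains there. The EpiLC values below are therefore changes of LAP2B signal, not of lamina contact. In LBRKO 69 were lower (10.1% of all genes) and 0 higher (13.3%), with a median of -0.57. In TKO 51 were lower (9.97%) and 0 higher (8.68%), with a median of -0.41. In QKO 80 were lower (17.8%) and 0 higher (18.3%), with a median of -0.63. All-gene medians were 0.01, 0.04 and 0.02. The relative TKO count dropped to 15 without WT EpiLC replicate 1, to 30 without TKO EpiLC replicate 1 and to 28 without TKO EpiLC replicate 2. The median percentile was 25.9 ± 1.4 for LBRKO EpiLC, 31.0 ± 0.4 for TKO EpiLC and 27.3 ± 2.0 for QKO EpiLC, and no library of a knockout overlapped with WT. Without division by bins these were 57.3, 58.2 and 55.0, against 65.1 in WT EpiLC. On the spike-in scale 40 members were lower in LBRKO (3.47% of all genes), 51 in TKO (9.36%) and 146 in QKO (55.7%), with 0 higher in each, where 5.55%, 0.0995% and 0.118% of all genes were higher. That TKO count dropped to 1 without WT EpiLC replicate 1 and to 12 without WT EpiLC replicate 3, was 10 and 7 without TKO EpiLC replicates 2 and 3, and was 79 without TKO EpiLC replicate 1. The LBRKO count was 13 without WT EpiLC replicate 1, and 23 and 19 without LBRKO EpiLC replicates 1 and 2.

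The clusters differed in LBRKO EpiLC. On chromosome 7, 23 of 23 members of chr7-2, 10 of 11 of chr7-1 and 10 of 14 of chr7-4 were lower, with medians of -1.03, -1.11 and -1.08. On chromosome 6, 7 of 25 members of chr6-2 and none of the 7 and 15 members of chr6-3 and chr6-4 were lower, with medians of -0.30, -0.01 and -0.03. Between these lay chr13-1 with 7 of 34 (median -0.38) and chr17-1 with 9 of 14 (-0.83). By spike-in 16 of 23 members of chr7-2, 8 of 11 of chr7-1, 9 of 14 of chr7-4, 5 of 14 of chr17-1 and 1 of 34 of chr13-1 were lower, and 0 in the chromosome 6 clusters. Vmn1r73 (chr7-2) had 7.90, 6.82 and 6.63 in WT and 2.55, 2.77 and 2.57 in LBRKO (-1.40 ± 0.15, adjusted p = 2.06e-10, limma). Vmn1r13 (chr6-2) had 3.85, 2.68 and 2.45 in WT and 3.14, 2.78 and 2.74 in LBRKO (-0.03 ± 0.20, adjusted p = 0.951, limma), and its groups overlapped. The chr6-3 members stood at the 77.0 ± 2.7 percentile in LBRKO EpiLC, near 83.9 ± 8.6 in WT EpiLC, while chr7-2 stood at 13.7 ± 1.3. All genes of chromosome 6 had a median change of 0.33, and those of chromosome 7 of -0.09. Divided by the median gene of their own chromosome, 15 members of chr6-2, 1 of chr6-3 and 6 of chr6-4 were lower, with medians of -0.68, -0.38 and -0.40.

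TKO and QKO differed from LBRKO in the order of the cluster medians. In EpiLC the chr6-2 and chr6-3 medians were -0.74 and -0.79 in TKO and -1.10 and -1.05 in QKO on the relative scale, and those of chr6-4 were -0.38 and -0.56. The large chromosome 7 clusters had -0.26 to -0.57 and -0.53 to -0.77. Divided by the median gene of their own chromosome, chr6-2 and chr6-3 had -0.56 and -0.61 in TKO and -0.83 and -0.80 in QKO, close to chr7-2 (-0.57 and -0.79), so a lower position of these clusters depends on the scaling. Vmn1r8 of chr6-2 had 3.47, 2.71 and 3.23 in WT, 1.16, 1.29 and 1.71 in TKO and 1.00, 1.18 and 1.17 in QKO. Both knockouts lay below WT, by -1.13 ± 0.22 and -1.41 ± 0.22. Its LBRKO libraries, at 2.40, 2.46 and 2.73, were close to WT (-0.30 ± 0.22, adjusted p = 0.372, limma). In chr13-1, 1 of 34 members was lower in TKO on the relative scale and 6 in QKO, a share near the 17.8% of all genes. By spike-in 0 were lower in TKO (median -0.42) and 32 in QKO (median -1.09).

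For many members the LBRKO and QKO changes were smaller in EpiLC than in naive cells on the relative scale. Because LAP2B in EpiLC also marks chromatin outside the lamina-associated domains, a smaller change of its signal cannot be read as a smaller change of contact. A test of the difference between stages (limma) called 40 members for LBRKO, all with the less negative change in EpiLC (10.2% of all genes called in that direction, 9.55% in the other). For QKO it called 100 members with the less negative change in EpiLC (24.9% of all genes) and 1, Vmn1r1, in the other direction (20.9%). The median difference was 0.61 for LBRKO and 0.92 for QKO, where all genes had 0.04 and 0.21. These counts depend on the scale. In the spike-in fit, added after seeing the data, 0 members were called for LBRKO in limma's test (0.0938% of all genes in that direction, 25 members at an unadjusted p under 0.05), and 88 for QKO (21.9% of all genes), with medians of 0.47 and 1.17 where all genes had -0.09 and 0.45. For TKO, 3 members were called on the relative scale (Vmn1r31, Vmn1r50 and Vmn1r51), a share below the 5.79% of all genes called in that direction, and 0 by spike-in (0.817%), with 33 at an unadjusted p under 0.05. The relative LBRKO count was 18 without WT naive replicate 2, 24 without WT EpiLC replicate 3, and 26 without either the third naive or the second EpiLC library of LBRKO.

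The stages were also compared within WT cells. In LAP2B 23 members were lower in EpiLC than in naive cells (17.1% of all genes) and 0 higher (15.1%), which is a share near that of all genes. The count dropped to 4 without WT EpiLC replicate 3, to 11 without WT EpiLC replicate 2, to 5 without WT naive replicate 2 and to 14 without WT naive replicate 1, and on the spike-in scale 1 member was lower (1.75% of all genes) and 0 higher (10.4%). Vmn1r25 (chr6-2) had the largest fall, from 1.03, 1.25 and 1.19 to 0.633, 0.607 and 0.250 (-1.15 ± 0.31, adjusted p = 0.00377, limma). Its change ran from -1.33 to -0.80 on leaving out a library, and the call was not kept in every case. In LMNB1, 4 members were lower (7.09% of all genes) and 0 higher (6.34%): Vmn1r224, Vmn1r230 and Vmn1r232 of chr17-1 and Vmn1r87 of chr7-2, by -0.58 to -0.63. Spike-in-scaled LMNB1 values gave 0 calls in limma's test (8.01% of all genes were higher and 0.249% lower), with 6 members at an unadjusted p under 0.05. The relative LMNB1 count rested on single libraries, with 16 without naive replicate 2, 13 without EpiLC replicate 2 and 0 to 1 without any other. Vmn1r230 had 9.05, 5.1 and 7.60 in naive LMNB1 and 4.84, 5.05 and 3.74 in EpiLC, where the second naive library came close to the EpiLC libraries. In IGG no member was called in limma's test (0.0725% of all genes higher and 0.418% lower), with 15 at an unadjusted p under 0.05. By spike-in 0 members and 0% of all genes were called in IGG as well, with 31 members at an unadjusted p under 0.05. The change there was above 0 for 148 of 148 members, with a median of 0.83 where all genes had 0.92.

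On the relative scale the change ended near the cluster borders in some clusters and ran on in others. By spike-in the nearest outside genes not called on the relative scale were called lower in naive QKO, where all genes had a median of -1.24. They were Txnrd3 (-1.33), BC048671 (-1.51), Rasl2-9 (-0.99), Zfp180 (-1.28) and Zfp322a (-1.17). Within the large clusters, the 51 other protein-coding genes had naive median changes of -1.13 (LBRKO), -0.41 (TKO) and -1.40 (QKO), with 39 lower and 9 higher in QKO cells and 21 lower and 11 higher in TKO. All 9 that were higher in QKO lay in chr7-2, and by spike-in 42 were lower and 0 higher in QKO and 33 lower and 3 higher in TKO. The 175 genes within 500 kb outside had medians of -0.17, 0.45 and 0.24, with 56 lower and 82 higher in QKO. Of all genes, 42.5% were lower and 33.1% higher in QKO on the relative scale, and 65.5% and 10.1% by spike-in. In TKO the shares were 27.6% and 21.8%, and 47.5% and 2.43% by spike-in. The 11 genes inside that were higher in TKO are thus near the share of all genes. The rise of the flanking genes depends on the scale: on the spike-in scale their QKO median was -0.97, with 95 lower and 31 higher, where the genes inside had -2.53. The share of lower flanking genes is below the 65.5% of all genes there. Around chr13-1, 22 of 27 flanking genes were higher in QKO (median 1.51, and 0.31 with 8 higher and 4 lower on the spike-in scale), while 34 of 34 members inside were lower. The histone gene H2bc11, 40.8 kb before the first member, changed by 1.87 ± 0.29 (adjusted p = 1.08e-07, limma) and by 0.84 on the spike-in scale (adjusted p = 0.0247). The zinc finger gene Zfp322a, 99.2 kb after the last, changed by 0.03 ± 0.15, and by -1.17 on the spike-in scale. Around chr17-1 the change ran on: Vmn2r107 before it and Zfp677 after it fell by 1.68 and 1.51, and 15 of 16 flanking genes were lower. Around chr7-1 the sides differed, with Rasl2-9, 3.34 kb before, at -0.01 ± 0.31 (-0.99 on the spike-in scale) and Nlrp4c, 34.2 kb after, at -1.55 ± 0.12.

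**Figure D5:**
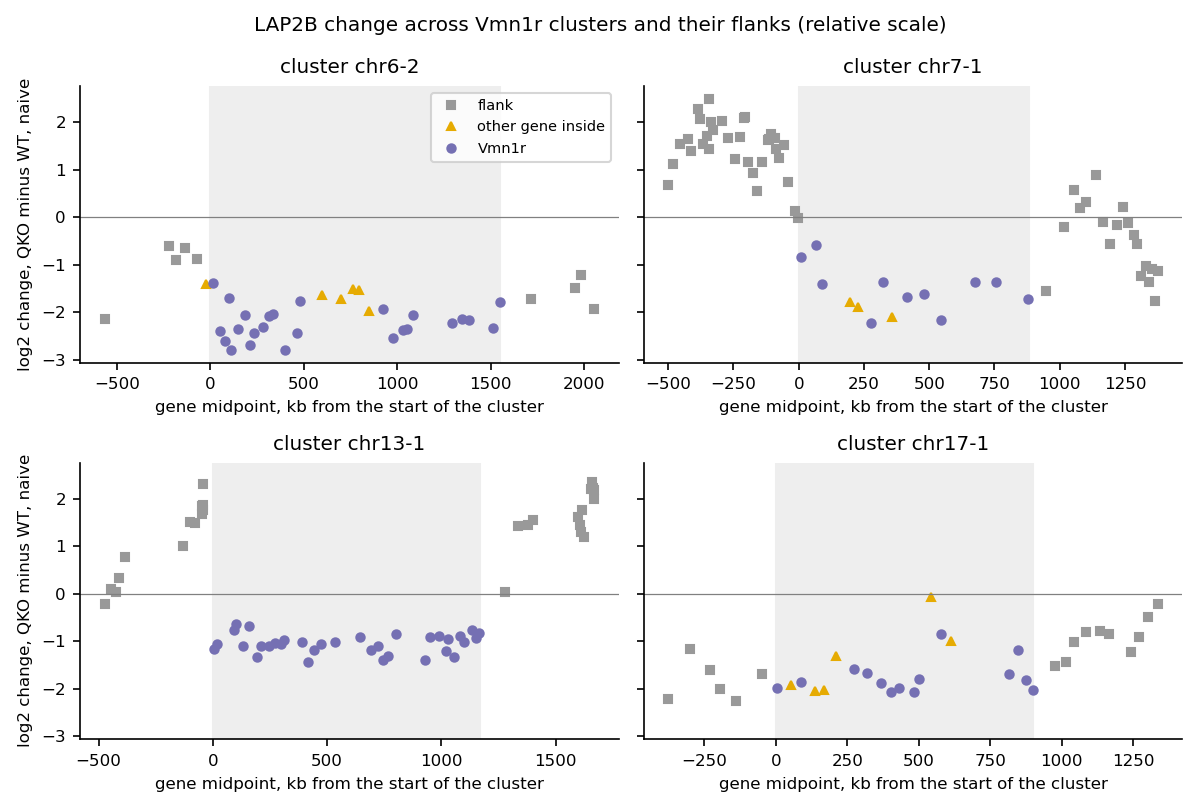
Change of LAP2B signal in naive QKO (y axis, log2 over WT, relative scale) by the distance of the gene midpoint from the cluster start (x axis, kb) for 4 clusters, shaded, with 500 kb on both sides. Points are single genes: circles Vmn1r, triangles other protein-coding genes inside, squares flanking genes. Around chr13-1 22 of 27 flanking genes are called higher (8 on the spike-in scale) and all members lie below 0, and around chr17-1 members and flanks are both below 0.

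Members that ranked higher in LMNB1 fell further in QKO. Over 147 members the naive LMNB1 percentile and the naive change had Pearson correlations of -0.63 for QKO, -0.39 for TKO and -0.30 for LBRKO. Between the EpiLC LMNB1 percentile and the EpiLC change they were -0.47, -0.43 and -0.09. These are descriptions across genes of a few clusters, and no test was made. The naive LMNB1 rank also went with the naive WT LAP2B rank (Pearson 0.82), and WT LAP2B is the baseline of each change. The correlations are therefore not independent of that baseline. Identity to the nearest copy had no such relation with the QKO change (r near 0, Spearman 0.06, n = 142).

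The related receptor families were also lower in QKO. In naive QKO 98.0% of the tested members were lower, as were 98.2% of Vmn2r genes, 90.5% of Or genes and 81.4% of Vmn1r pseudogenes, with medians of -1.62, -1.88, -1.60 and -1.10, and 42.5% of all genes. By spike-in the shares were 99.3%, 100%, 98.0% and 94.2%, and 65.5% of all genes. In LBRKO EpiLC the families were further apart, with 46.6% of members, 71.2% of Vmn2r genes and 22.4% of Or genes lower, against 10.1% of all genes. The spike-in shares were 27.0%, 45.9% and 9.2%, against 3.47%. The differences between families were not tested.

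Genes that act with the receptors changed in both directions. Of 20 genes for V1R signal transduction and receptor transport, 9 were higher and 8 lower in naive QKO on the relative scale, with a median of 0.11, where 33.1% of all genes were higher and 42.5% lower. With so few genes this split is near that of all genes. By spike-in 4 were higher and 11 lower (10.1% and 65.5% of all genes), with a median of -1.04. In LBRKO 7 were higher and 6 lower on the relative scale (28.9% and 27.7% of all genes), and 7 and 3 by spike-in (28.2% and 17.8%). In TKO the relative counts were 8 higher and 7 lower (21.8% and 27.6%), but by spike-in 0 were higher and 9 lower (2.43% and 47.5%). Gnai2, the G protein subunit of V1R neurons, rose from 5.68, 4.55 and 4.48 to 38.7, 28.2 and 37.0 (2.79 ± 0.12, adjusted p = 8.99e-26, limma), and by 1.55 on the spike-in scale. Slc8a1, a sodium-calcium exchanger gene, fell by 1.94 from 98.3, 118.6 and 88.2 to 22.4, 33.0 and 24.5. Trpc2, the transduction channel, named for its role after its values were seen, had 2.74, 4.16 and 2.92 in WT and 8.86, 6.98 and 8.56 in QKO. It was higher on the relative scale (1.30 ± 0.16) but not called on the spike-in scale (0.08, adjusted p = 0.778, limma).

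Regulators of vomeronasal neurons also changed in both directions. Of 17 genes, 7 were higher and 8 lower in naive QKO on the relative scale, again near the shares of all genes, with a median of -0.29. By spike-in 3 were higher and 12 lower, also near the shares of all genes (10.1% and 65.5%), with a median of -1.42. The LIM domain-binding cofactor gene Ldb1 rose by 2.74 ± 0.15 (1.52 on the spike-in scale), and the axon guidance receptor gene Robo2 fell by 1.98. Formyl peptide receptor genes, some of which are also used by vomeronasal neurons, were lower throughout in naive QKO: 7 of 7 on both scales (42.5% and 65.5% of all genes), with medians of -1.31 and -2.29. In LBRKO 6 of them were lower on both scales (27.7% and 17.8% of all genes). In TKO 2 were lower on the relative scale, a share near the 27.6% of all genes, and 6 by spike-in (median -1.01), where 47.5% of all genes were lower. Fpr3 fell from 26.8, 32.6 and 27.2 to 8.44, 10.5 and 8.51 (-1.65 ± 0.11, adjusted p = 2.43e-19, limma).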

How the data were processed

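Values were taken from 3 tables with 1 column per library (24 LAP2B, 6 LMNB1 and 6 IGG). Per the submitters' processing notes and the study's methods, reads were aligned to mm39 with Bowtie2 2.3.5.1 and filtered with SAMtools 1.10, and the authors deposited signal: RPKM in 1 kb bins from deepTools, scaled by yeast (sacCer3) spike-in reads, with blacklisted regions left out. Every nonzero value was a whole multiple of 1 read's worth (100% within 0.05), which gave the reads per gene used for depth and for edgeR. Per the study's methods, properly paired primary alignments were kept, and duplicates and mitochondrial reads were removed. No filter for unique mapping is stated for the gene tables, and how bins were joined to genes is not given in the sources used here. The values were taken to be sums over the bins a gene touches, because within a library they are whole multiples of the same step for every gene. A plain count over each gene would give such multiples too, so this reading is an assumption. If the values are such sums, a fragment that touches several bins counts in each, and the recovered reads can exceed the true reads. Tables of transposable elements were not used here.

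Gene positions and coding sequences came from the GENCODE annotation of GRCm39. Values, or values divided by the library's median gene, were tested as log2(value + 0.1 of the median) with limma 3.58.1 (R 4.3.3), all 24 LAP2B libraries in 1 model, and LMNB1 and IGG each in its own. Fold changes on this scale understate the change of low genes. The lowest 0.1 of genes by mean value was left out, which left 70381, and p-values received the Benjamini-Hochberg adjustment for that number of genes, with a threshold of 0.05. All p-values are two-sided. With 3 libraries against 3 an exact permutation test cannot go below 0.1, so none was used. The fit was tested on simulated data. That simulation changed a small set of genes by a known fold and used a fixed spread. In these data far more genes were called, so the simulation does not give the error rates here. Coding sequences were compared with blastn 2.17.0 over at least 80% of their length.

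Genes were named by rule: in each cluster of at least 5 members, the members with the highest and lowest naive WT LAP2B signal per bin and the median naive QKO change, up to 5 largest rises and falls per contrast, the members outside those clusters, and the extremes of 3 gene lists. Exceptions are marked in the text. Members and lists were chosen with earlier results of these data known. Alternatives were another scaling (mean gene, same chromosome, spike-in factor on reads), pseudocount, no filter, a replicate block, only the groups compared, edgeR 4.0.16 on recovered reads, and leaving out each library. The spike-in values of flanking genes, gene lists, QKO minus TKO and the stage differences were added after seeing the data. Libraries of a group differed beyond sampling noise (chi-square per degree of freedom 3.42 to 13.1), so none was counted as a duplicate.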

Additional observations from a re-analysis of the deposited data

Results flagged for a closer look

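The test of the difference between stages (limma, EpiLC change minus naive change on the relative scale) called 40 members for LBRKO, 3 for TKO and 101 (100 in 1 direction) for QKO. For LBRKO, the difference was 1.58 ± 0.38 for Vmn1r31 (from -1.52 in naive cells to 0.06 in EpiLC), 1.5 ± 0.45 for Vmn1r36, 1.42 ± 0.33 for Vmn1r11, 1.31 ± 0.46 for Vmn1r15 and 1.31 ± 0.34 for Vmn1r224. All of these but Vmn1r224 lie in chr6-2 or chr6-3. The calls of Vmn1r36 (1.29 to 1.73) and Vmn1r15 (0.92 to 1.75) were not kept on leaving out every library in turn. On the spike-in scale the test called 0 members for LBRKO (25 at an unadjusted p under 0.05), 0 for TKO (33) and 88 for QKO.

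For TKO the members were Vmn1r50 (1.22 ± 0.32), Vmn1r31 (1.17 ± 0.38) and Vmn1r51 (1.10 ± 0.29). The TKO count was 0 without WT EpiLC replicate 3, and 6 without TKO naive replicate 1 or WT naive replicate 3. For QKO the largest differences were those of Vmn1r25 (2.05 ± 0.44, from -2.35 to -0.30), Vmn1r15 (1.72 ± 0.46), Vmn1r62 (1.71 ± 0.44), Vmn1r89 (1.69 ± 0.34) and Vmn1r11 (1.65 ± 0.33). Vmn1r1 was the single member with a difference below 0 (-0.79 ± 0.27, from 0.91 in naive cells to 0.12 in EpiLC, adjusted p = 0.0138, limma). On the spike-in scale its naive QKO change was -0.28 and the difference -0.44 (adjusted p = 0.414, limma). The call was lost without WT naive replicate 2 (adjusted p = 0.0531) and without QKO EpiLC replicate 1 (0.0547). The cause of these differences was not tested.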

How the results depend on the processing

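Of 144 alternative counts of called members, 122 stayed within 1.5 times the main count, 21 moved and 1 reversed, and the cause was not tested. For contrasts planned on both scales, each scale was counted as its own result, so a move between scales is not in this tally. Those counts are given on both scales with each contrast above. The spike-in scale, added after seeing the data, gave 82 for QKO minus TKO in EpiLC and 0 for the LBRKO and TKO stage differences. Division by the mean gene gave 57 calls for naive TKO (55 lower, where the median of all genes was 0.18), 4 for the stage change of LAP2B, 17 for the LBRKO stage difference and, reversed, 1 rise for the stage change of LMNB1. Division by the same chromosome's median gave 9 for the last, and no filter gave 1. Without the filter the LBRKO stage difference had 23, TKO EpiLC on the spike-in scale 32 and the stage change of LAP2B on that scale 0. A pseudocount of 1 gave 7 for the TKO stage difference, 1 for QKO minus TKO in EpiLC and 2 for the spike-in stage change of LAP2B. QKO minus TKO in EpiLC had 5 with only its groups and 1 by edgeR. TKO EpiLC on the spike-in scale had 12 with the factor applied to reads and 0 with only its groups, as had the spike-in stage change of LAP2B. Leaving out each library gave 4 to 28 for the stage change of LAP2B (0 to 1 on the spike-in scale), 0 to 16 for LMNB1 (0 to 2), 0 to 15 for IGG on the spike-in scale, 18 to 46 for the LBRKO stage difference, 0 to 6 for the TKO one, 15 to 51 for TKO EpiLC (1 to 79 on the spike-in scale), 13 to 48 for LBRKO EpiLC on the spike-in scale and 0 to 1 for QKO minus TKO in EpiLC.

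Replicate numbers did not pair the libraries: the correlation of same-numbered deviations ran from -0.1156 to 0.1764 in LAP2B, with 3 of 84 above 0.1. With a replicate block, naive QKO, TKO and LBRKO had 146, 98 and 133 calls, the stage change of LMNB1 had 2 and QKO minus TKO in EpiLC had 1.

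Percentiles depend on the reference. Not divided by bins, the median was 58.0 in EpiLC and 60.0 in naive IGG, 57.3 and 49.9 in LBRKO, 55.0 and 45.2 in QKO, 58.2 and 59.0 in TKO, and 71.2 and 72.7 in LMNB1. Among protein-coding genes it was 24.7 and 28.2 in IGG, 18.6 and 15.8 in LBRKO, 20.1 and 14.6 in QKO, 23.9 and 35.4 in TKO, and 75 in naive WT LAP2B. Of the named members' values 465 kept their call, 40 lost it and 1 reversed under other settings (Vmn1r1 in naive QKO minus TKO, -0.13 on the spike-in scale), and 450 kept and 54 lost it on leaving out a library. That tally takes in the spike-in scale only for QKO minus TKO and the stage differences between genotypes. It does not hold the knockout against WT, where Vmn1r1 also changed sign by spike-in in naive TKO and QKO. Members of 1 to 2 bins have few reads, which limits single genes.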

Other observations

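Among the genes whose LAP2B, LMNB1 and IGG profile over the 12 groups was most like the median profile of the members were Gm56506, a long non-coding RNA gene, and Acvr1c, a receptor of the activin family. Both had a Pearson correlation of 0.995 over the 12 groups, which share libraries and antibodies, so this is a description. Neither of them is a receptor of the vomeronasal organ.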
